A study of Rattus norvegicus with 12 samples.

Results

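Ubiquitin-specific proteases and their closest relatives were followed through doxorubicin treatment and p300 depletion in neonatal rat cardiac myocytes. The members were all genes whose symbol on the array begins with Usp and a number, with Otud or with Uchl. Only probe sets with 1 gene symbol were taken, and the brightest per gene over all 12 arrays stood for the gene. The rule found 47 of the 14506 genes measured: 40 Usp symbols, 4 Otud symbols of the ovarian tumour (OTU) family and 3 Uchl symbols of the ubiquitin C-terminal hydrolase (UCH) family. Usp6nl met the rule by its name alone, since it encodes a GTPase-activating protein for Rab proteins and no protease. The symbol of all 47 was still current in RefSeq.

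The cells were primary Sprague Dawley cardiac myocytes, over 90% pure by the submitters' statement, grown with bromodeoxyuridine against fibroblasts and kept 48 h without serum. They had been transfected with an siRNA against p300 (p300kd) or with a non-silencing siRNA (NS), and RNA was taken after 8 h or 0 h in 1 µM doxorubicin, an anthracycline that poisons topoisomerase II. The 4 groups were p300kd at 8 h, p300kd at 0 h, NS at 8 h and NS at 0 h, with 3 arrays each, 1 from each of 3 experiments. All cells thus carried an siRNA, the knockdown was partial, and no untreated culture was kept to 8 h, so that drug and time in culture cannot be told apart.

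Ubiquitin is attached to proteins by a cascade of activating (E1), conjugating (E2) and ligating (E3) enzymes and is cut off again by deubiquitinases. The ubiquitin-specific proteases are the largest deubiquitinase family, and each acts on a set of substrates that includes histones, p53 and its ligase MDM2, membrane receptors and mitochondrial proteins. By removing ubiquitin they can spare a protein from the proteasome, end a signal, or return free ubiquitin to the pool, and the heart depends on this turnover to keep its contractile proteins in order.

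Values are log2 of the deposited intensity, on which 1 unit is a doubling. They are compared between arrays for 1 probe set. Probe sets differ in how brightly they hybridise, so the signals of different genes, where given, set no order of transcript levels. A log2 change is the 8 h minus the 0 h mean, or the p300kd minus the NS mean, with the standard error (SE) from limma, and a gene was called at a Benjamini-Hochberg adjusted p under 0.05 over all 14506 genes. Precision depends on the number of arrays and on the spread within groups. The median SE of a drug change was 0.105 over the members and 0.0951 over all genes. Unless a block is named, the fit left out the experiment, so the SE includes spread between experiments. A gene not called in that fit can pass with the experiment added as a block. Changes in these bulk samples do not tell fewer cells of a type from less RNA per cell.

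Ep300, which encodes p300, read 10.10, 9.64 and 9.80 in p300kd cells at 8 h, against 10.86, 10.72 and 10.72 in NS cells at 8 h. At 0 h the values were 10.41, 10.02 and 10.05 in p300kd cells and 11.16, 11.01 and 11.14 in NS cells. The p300kd arrays lay below the NS arrays at both times, and the averaged log2 change was -0.93 (SE 0.0894, limma adjusted p = 0.00212), a call that was lost without experiment 2 (-0.88, adjusted p = 0.348) and without experiment 3 (-0.90, adjusted p = 0.168). The 10 cardiac myocyte markers had mean log2 signals from 11.36 to 14.15, and their summed intensity ran from 91494 to 103609 in p300kd cells at 8 h, from 91518 to 103597 in p300kd cells at 0 h, from 97603 to 107380 in NS cells at 8 h and from 98458 to 102692 in NS cells at 0 h. The mean log2 signals of other marker lists ran from 8.91 to 13.87 (fibroblasts), 7.97 to 14.19 (smooth muscle and pericytes), 7.26 to 11.50 (macrophages), 6.25 to 9.22 (endothelium) and 5.88 to 9.09 (neurons), and no share of cells is read from them. Over the 10 macrophage markers, 3 passed as lower with the p300 siRNA averaged over both times (1.02% of all genes did), among them Csf1r (-0.46, SE 0.0841, adjusted p = 0.0261), and 6 did in the fit blocked by experiment (6.29% of all genes). Of the 10 fibroblast markers 0 passed there and 5 were lower in the blocked fit. The median averaged change was -0.28 over the macrophage and -0.15 over the fibroblast markers, against 0.01 over all genes.

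By signal, the brightest member probe sets were those of Uchl1 (mean log2 signal 12.11), Usp18 (11.92) and Usp9x (11.46), and the dimmest those of Usp26 (5.44), an X-linked gene known from the testis, Usp29 (6.30), which is imprinted, and Usp44 (6.50), known from the mitotic checkpoint. None of the 3 genes with the dimmest probe sets was called in any comparison, and on the 12 arrays Usp26 stayed between 5.22 and 5.60, Usp29 between 6.06 and 6.55 and Usp44 between 6.36 and 6.74.

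After doxorubicin more members fell than rose. In p300kd cells 4 of 47 rose and 14 fell, where 13.9% of all genes rose and 17.5% fell, and in NS cells 2 rose and 14 fell, where 11.1% of all genes rose and 16.4% fell. As shares of the members this was 8.51% up and 29.8% down in p300kd cells, and 4.26% up and 29.8% down in NS cells. The median change over the members was -0.04 in p300kd cells and -0.05 in NS cells, against 0.04 over all genes in each. With arrays centred on their medians the all-gene median moved to 0.14 in both, and the members split into 11 up and 13 down in p300kd cells (29.9% and 13.7% of all genes) and 6 up and 12 down in NS cells (26.2% and 12.6% of all genes). With the experiment as a block, 9 rose and 18 fell in p300kd cells (22.9% and 22.8% of all genes), and 5 rose and 18 fell in NS cells (21.6% and 21.9% of all genes). Leaving out experiment 2 left 2 up and 10 down in p300kd cells and 0 up and 10 down in NS cells, while all genes went to 5.0% up and 10.6% down in p300kd cells and 3.14% up and 9.15% down in NS cells. Without experiment 3 the members split into 2 up and 10 down in p300kd cells (5.42% and 10.8% of all genes) and 2 up and 9 down in NS cells (4.18% and 9.17% of all genes).

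In both kinds of cell 12 members fell: Usp2, Usp10, Usp42, Usp53, Usp39, Usp20, Usp32, Usp48, Usp47, Usp21, Usp30 and Usp6nl. Uchl5 and Usp15 rose in both. These 14 passed in both comparisons with 1 sign, where 23.5% of all genes did. A fall of at least 1.5-fold that passed was found for 9 members in p300kd cells (7.28% of all genes) and for 7 in NS cells (6.53% of all genes), and no member rose by that much in either (2.79% of all genes did in p300kd cells and 1.92% in NS cells). The 8 h and 0 h arrays did not overlap for 8 members that were higher and 18 that were lower in p300kd cells (21.6% of all genes each way), and for 3 that were higher and 19 that were lower in NS cells (20.1% and 21.2% of all genes). Passing in 1 comparison were Usp45, Usp19, Otud6b and Uchl1 in p300kd cells and Otud4 and Usp3 in NS cells, and for none of these 6 was the difference between the responses called. The other 27 were called in neither comparison. Across members, the changes in p300kd and in NS cells had a Pearson r of 0.964, against 0.946 across all genes. This describes genes from the same 3 experiments and carries no p.

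**Figure D1:**
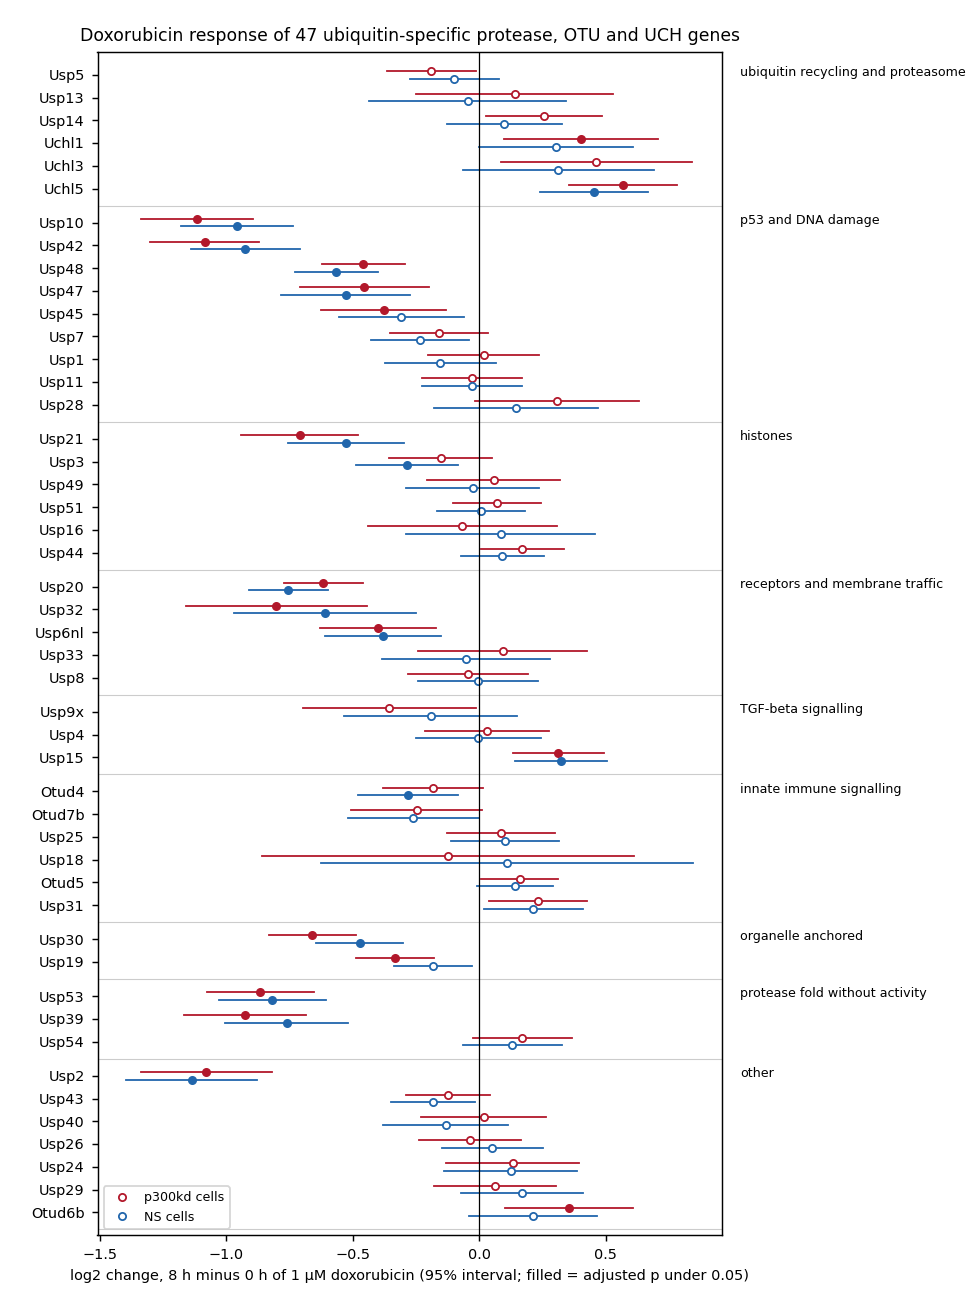
Change of each member after 8 h of doxorubicin on the log2 scale (8 h minus 0 h, horizontal axis), by role, in p300kd cells (red, upper of each pair) and NS cells (blue, lower), with 95% intervals from limma and filled points at adjusted p under 0.05. Usp2, Usp10 and Usp42 lie near -1 in both kinds of cell, and the highest points are those of Uchl5, at 0.57 in p300kd and 0.45 in NS cells.

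The promoters of 3 members with large falls and of Uchl5, which had the largest rise, are shown because the results turn on these genes, as RefSeq has them, each 300 bases from 250 before to 50 after the annotated start, on GRCr8. Capitals mark matches, on either strand, to any of 6 short motifs: the CRE (TGACGTCA), the E-box (CACGTG), the CCAAT box (CCAAT), the GC box (GGGCGG), the TATA box (TATAAA) and the ETS site (CCGGAAG).
Usp2, chr8:53310620-53310919, + strand: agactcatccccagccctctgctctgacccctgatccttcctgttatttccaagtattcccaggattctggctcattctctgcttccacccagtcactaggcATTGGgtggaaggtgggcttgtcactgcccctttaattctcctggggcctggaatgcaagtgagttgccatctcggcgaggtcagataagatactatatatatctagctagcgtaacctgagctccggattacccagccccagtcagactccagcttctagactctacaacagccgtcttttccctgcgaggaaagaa
Usp10, chr19:64881547-64881846, + strand: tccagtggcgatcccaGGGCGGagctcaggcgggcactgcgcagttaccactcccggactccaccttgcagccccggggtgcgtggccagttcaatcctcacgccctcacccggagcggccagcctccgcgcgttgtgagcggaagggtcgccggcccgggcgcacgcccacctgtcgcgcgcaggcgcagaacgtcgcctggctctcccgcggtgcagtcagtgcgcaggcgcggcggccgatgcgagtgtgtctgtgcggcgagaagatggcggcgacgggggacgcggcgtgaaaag
Usp53, chr2:213805259-213805558, - strand: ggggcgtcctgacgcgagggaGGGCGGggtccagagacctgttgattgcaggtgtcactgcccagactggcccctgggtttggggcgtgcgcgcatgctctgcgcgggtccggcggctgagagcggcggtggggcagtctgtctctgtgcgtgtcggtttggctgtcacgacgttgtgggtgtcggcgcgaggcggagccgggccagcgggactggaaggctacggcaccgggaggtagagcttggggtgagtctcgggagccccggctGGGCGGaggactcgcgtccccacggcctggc
Uchl5, chr13:58070826-58071125, + strand: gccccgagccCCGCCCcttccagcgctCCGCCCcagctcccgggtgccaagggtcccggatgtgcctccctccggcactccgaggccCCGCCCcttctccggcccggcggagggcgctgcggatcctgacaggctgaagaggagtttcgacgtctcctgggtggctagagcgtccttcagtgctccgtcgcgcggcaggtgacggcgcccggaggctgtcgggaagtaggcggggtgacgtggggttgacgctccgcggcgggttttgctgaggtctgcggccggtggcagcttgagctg

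The Usp2 window held a single CCAAT box at position -148, counted from the start. Usp10 held 1 GC box at -234, Usp53 held GC boxes at -229 and 19, and Uchl5 held 3 GC boxes at -240, -223 and -163. The table held a promoter for 37 of the 47 members, with 0 overlaps between different motifs. A GC box was present in 26 of the 37 (70.3%), against 34.9% of 27457 rat promoters of the same length, beside a median GC content of 63.0% in the members' promoters and 52.3% in all. Of the 11 promoters of genes that fell in both kinds of cell, 7 held a GC box, as did both promoters of the genes that rose in both. The other motifs were in few members: ETS in 7 (18.9%, against 9.22% of all promoters), E-box in 4 (10.8%, against 6.65%), CCAAT in 9 (24.3%, against 37.7%) and TATA in 4 (10.8%, against 14.3%). CRE letters were in 0 of the 37 windows, against 1.91% of all promoters. Motif and promoter choices were made after the changes were seen, so these shares are a description of letters and not of binding.

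Usp2, whose transcript follows the circadian clock and whose protease acts on cyclin D1 and MDM2, fell most in NS cells. It read 9.53, 9.45 and 9.29 at 8 h in p300kd cells, against 10.30, 10.53 and 10.68 at 0 h. In NS cells the values were 9.53, 9.47 and 9.50 at 8 h, against 10.46, 10.59 and 10.87 at 0 h. The 8 h arrays lay below the 0 h arrays in both kinds of cell. The change was -1.08 in p300kd cells (SE 0.120, adjusted p = 3.09e-05) and -1.14 in NS cells (SE 0.120, adjusted p = 2.56e-05), which left 47.4% of the 0 h level in p300kd cells and 45.5% in NS cells.

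Among the 9 members tied to p53 and DNA damage, 5 fell in p300kd cells and 4 in NS cells, where 17.5% and 16.4% of all genes did, and none rose. With the block 1 rose and 5 fell in p300kd cells (22.9% and 22.8% of all genes). In NS cells 0 rose and 6 fell with the block (21.6% and 21.9% of all genes). Usp10 removes ubiquitin from p53 in the cytoplasm, as known from human cells, and read 9.81, 9.92 and 9.72 at 8 h, against 10.75, 10.99 and 11.06 at 0 h, in p300kd cells. In NS cells it read 9.83, 9.86 and 9.82 at 8 h, against 10.62, 10.94 and 10.82 at 0 h. The 8 h arrays lay well below the 0 h arrays in both. The change was -1.12 in p300kd cells (SE 0.103, adjusted p = 7.86e-06) and -0.96 in NS cells (SE 0.103, adjusted p = 2.87e-05).

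Usp42, a nuclear protease that also acts on p53 under stress in human cells, read 8.96, 8.65 and 8.55 at 8 h, against 9.79, 9.88 and 9.74 at 0 h, in p300kd cells. Its NS values were 8.76, 8.81 and 8.72 at 8 h, against 9.65, 9.68 and 9.73 at 0 h. No 8 h array reached any 0 h array. Usp42 fell by 1.09 in p300kd cells (SE 0.0995, adjusted p = 7.67e-06) and by 0.93 in NS cells (SE 0.0995, adjusted p = 2.94e-05).

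Usp48 is a nuclear protease that trims the histone H2A ubiquitin placed by BRCA1. It read 8.67, 8.66 and 8.70 at 8 h, against 9.11, 9.20 and 9.10 at 0 h, in p300kd cells, and 8.55, 8.62 and 8.44 at 8 h, against 9.14, 9.03 and 9.14 at 0 h, in NS cells. The groups were tight and apart, with changes of -0.46 in p300kd cells (SE 0.0757, adjusted p = 5.72e-04) and -0.56 in NS cells (SE 0.0757, adjusted p = 1.55e-04). Usp47, which spares DNA polymerase beta from degradation, fell by 0.45 in p300kd cells (SE 0.117, adjusted p = 0.0103) and by 0.53 in NS cells (SE 0.117, adjusted p = 0.00501). Its p300kd call was lost without experiment 2 (-0.33, adjusted p = 0.143) or experiment 3 (-0.52, adjusted p = 0.0639), and its NS call without experiment 3 (-0.52, adjusted p = 0.0726).

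Usp45, a partner of the XPF and ERCC1 repair nuclease, passed in p300kd cells, at -0.38 (SE 0.114, adjusted p = 0.0232), against -0.31 in NS cells (adjusted p = 0.0637, and 0.0206 with the experiment as a block). Without p300kd replicate 2 at 8 h the p300kd change was -0.24 (adjusted p = 0.102). The other 4 were not called: Usp7, the main deubiquitinase of MDM2, was at -0.16 in p300kd cells and at -0.23 in NS cells, where it passed with the block (adjusted p = 0.0112). Usp1, which acts on FANCD2 and PCNA, was at 0.02 in p300kd and -0.15 in NS cells. Usp11, a partner of BRCA2, was at -0.03 in each. Usp28, a partner of 53BP1, was at 0.31 in p300kd cells (adjusted p = 0.139, and 0.0108 with the block) and 0.15 in NS cells.

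Usp39, Usp53 and Usp54 were placed in a role named protease fold without activity, which was assigned here and not taken from the array annotation. Their activity was not measured, and the role name is no evidence that they lack it. Of these 3 members 2 fell in both kinds of cell. Of all genes 17.5% fell in p300kd cells and 16.4% in NS cells. Usp53, a scaffold at tight junctions, read 8.22, 8.01 and 8.32 at 8 h, against 9.06, 9.07 and 9.02 at 0 h, in p300kd cells. The NS values were 8.39, 8.39 and 8.38 at 8 h, against 9.27, 9.02 and 9.32 at 0 h. All 6 arrays at 8 h lay below all 6 at 0 h, and the change was -0.86 in p300kd cells (SE 0.0979, adjusted p = 3.60e-05) and -0.82 in NS cells (SE 0.0979, adjusted p = 6.38e-05).

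Usp39, a subunit of the spliceosomal tri-snRNP, read 9.62, 9.73 and 9.58 at 8 h, against 10.43, 10.61 and 10.66 at 0 h, in p300kd cells. In NS cells it read 9.63, 10.03 and 9.96 at 8 h, against 10.50, 10.72 and 10.67 at 0 h. The 8 h arrays were lower throughout, and experiment 1 was the lowest NS array at 8 h. Its change was -0.93 in p300kd cells (SE 0.112, adjusted p = 5.92e-05) and -0.76 in NS cells (SE 0.112, adjusted p = 2.98e-04). Usp54, the relative of Usp53, was at 0.17 in p300kd cells and 0.13 in NS cells and was not called. A second Usp54 probe set was at 0.11 in p300kd and 0.21 in NS cells and did not pass either.

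Of the 5 members that act on receptors and membrane traffic, 3 fell in both. Of all genes 17.5% fell in p300kd cells and 16.4% in NS cells. Usp20, which binds the von Hippel-Lindau protein and recycles the beta-2 adrenergic receptor, read 8.87, 8.89 and 8.81 at 8 h, against 9.45, 9.45 and 9.53 at 0 h, in p300kd cells. In NS cells its values were 8.77, 8.76 and 8.75 at 8 h, against 9.56, 9.55 and 9.43 at 0 h. The arrays of a group barely differed, and the 2 times stood far apart. The change was -0.62 in p300kd cells (SE 0.0722, adjusted p = 4.68e-05) and -0.75 in NS cells (SE 0.0722, adjusted p = 1.30e-05), and drug treatment held 97.5% of its sum of squares over the 12 arrays.

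Usp32, a membrane-bound protease of the Golgi and endosomes, read 9.22, 8.58 and 8.78 at 8 h, against 9.80, 9.67 and 9.51 at 0 h, in p300kd cells, and 9.09, 9.08 and 8.67 at 8 h, against 9.71, 9.36 and 9.59 at 0 h, in NS cells. The groups did not overlap, though their arrays were spread more widely than those of Usp20. It fell by 0.80 in p300kd cells (SE 0.166, adjusted p = 0.00268) and by 0.61 in NS cells (SE 0.166, adjusted p = 0.0157). The p300kd call was lost without experiment 2 (-0.66, adjusted p = 0.0652). The NS call was lost without experiment 3 (-0.45, adjusted p = 0.193), without NS replicate 3 at 8 h (-0.47, adjusted p = 0.0711) or without NS replicate 1 at 0 h (-0.53, adjusted p = 0.0639).

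Usp6nl, the Rab GTPase-activating protein, fell by 0.40 in p300kd cells (SE 0.106, adjusted p = 0.0120) and by 0.38 in NS cells (SE 0.106, adjusted p = 0.0174). Its NS call was lost without any 1 of the 3 experiments, with adjusted p = 0.0609, 0.0669 and 0.132 without experiments 1, 2 and 3, and without NS replicate 3 at 8 h (-0.28, adjusted p = 0.0787). The p300kd call was lost without experiment 2 (adjusted p = 0.101), experiment 3 (adjusted p = 0.0558) or p300kd replicate 3 at 8 h (adjusted p = 0.0593). Usp33, the relative of Usp20, was at 0.09 in p300kd and -0.05 in NS cells, and Usp8, which clears receptors from endosomes, at -0.04 in p300kd and 0.00 in NS cells; neither was called.

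Of the members anchored in organelle membranes, Usp30 fell in both kinds of cell and Usp19 in p300kd cells. Usp30 sits in the outer mitochondrial membrane, where it opposes parkin and so mitophagy, and read 8.87, 8.92 and 8.99 at 8 h, against 9.50, 9.57 and 9.69 at 0 h, in p300kd cells. The NS arrays gave 8.91, 8.77 and 8.89 at 8 h, against 9.35, 9.28 and 9.35 at 0 h. The times were apart in both, with the highest values in p300kd cells at 0 h. Usp30 fell by 0.66 in p300kd cells (SE 0.0794, adjusted p = 5.82e-05) and by 0.47 in NS cells (SE 0.0794, adjusted p = 7.93e-04). Usp19, anchored in the endoplasmic reticulum, passed in p300kd cells at -0.33 (SE 0.0708, adjusted p = 0.00326, and 0.0779 without experiment 3) and was at -0.18 in NS cells (adjusted p = 0.0731, and 0.0133 in the blocked fit).

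Among the 6 histone deubiquitinases Usp21, which acts on histone H2A, read 10.15, 9.97 and 9.85 at 8 h, against 10.91, 10.59 and 10.61 at 0 h, in p300kd cells. In NS cells it read 10.17, 10.02 and 10.10 at 8 h, against 10.73, 10.56 and 10.58 at 0 h. The times did not overlap, and it fell by 0.71 in p300kd cells (SE 0.107, adjusted p = 2.95e-04) and by 0.53 in NS cells (SE 0.107, adjusted p = 0.00276). The NS call was lost without experiment 2 (-0.52, adjusted p = 0.0634). Usp3, which acts on H2A and H2B, passed in NS cells, at -0.28 (SE 0.0938, adjusted p = 0.0387), against -0.15 in p300kd cells. That call was lost under 12 of 24 alternatives, including without any 1 experiment, and at its weakest, without experiment 3, the change was -0.15 (adjusted p = 0.431). Usp16, Usp44, Usp49 and Usp51 were not called, with changes from -0.07 to 0.17 in p300kd cells and from -0.03 to 0.09 in NS cells.

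**Figure D2:**
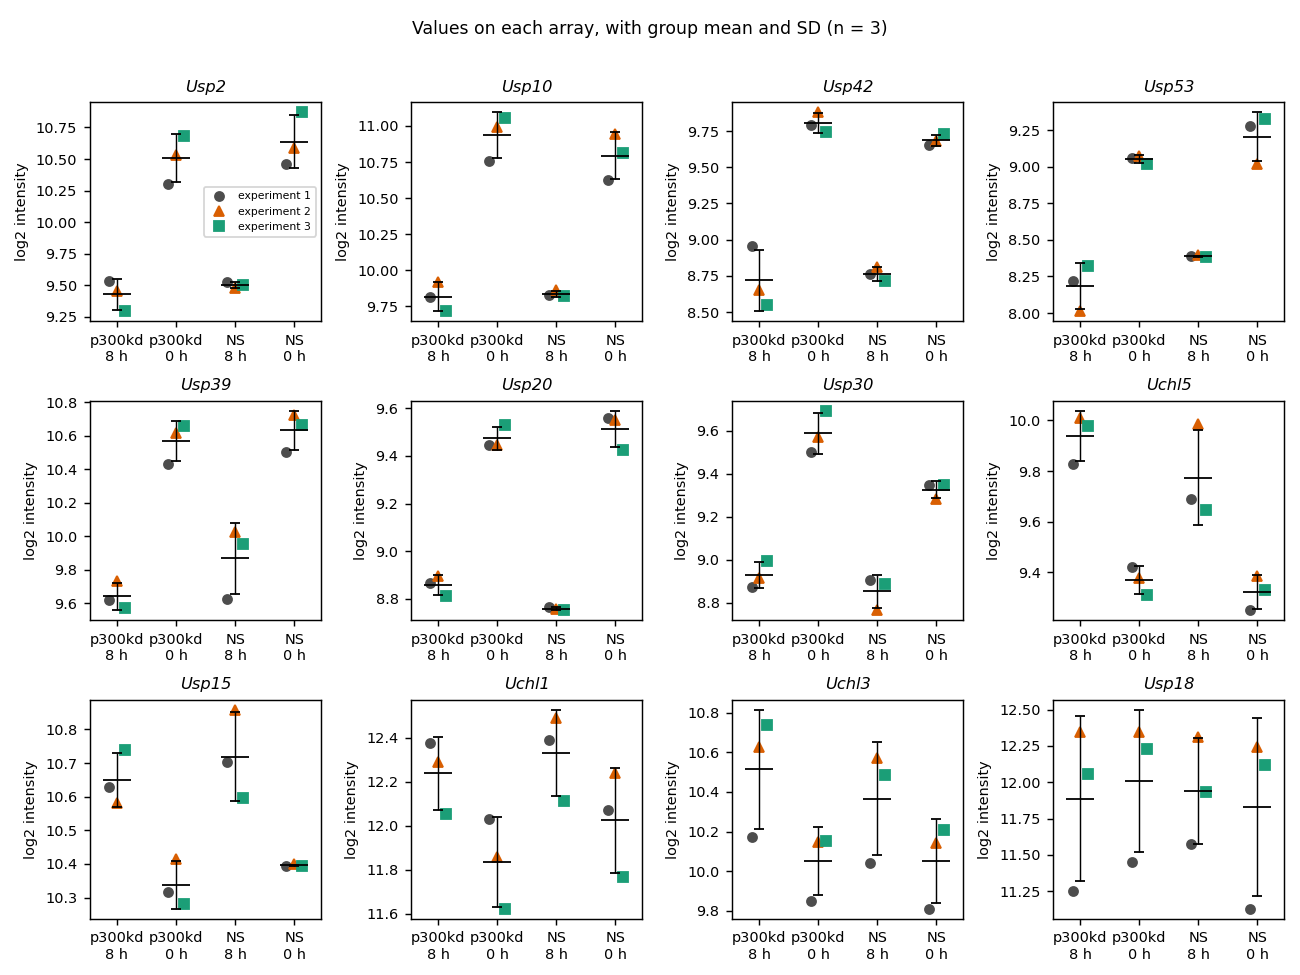
Log2 intensity (vertical axis, its own range in each panel) of 12 members on each of the 12 arrays, with p300kd and NS cells at 8 h and 0 h from left to right, the mean and SD of each group (n = 3) and a symbol for each experiment. The 8 h groups lie apart below the 0 h groups for Usp2 to Usp30 and above them for Uchl5 and Usp15, while Usp18 is lowest in experiment 1 in each group.

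The members that rose in one or both kinds of cell were Uchl5, Uchl1, Usp15 and Otud6b. Of the 6 members that recycle ubiquitin or work at the proteasome, 2 rose in p300kd cells and 1 in NS cells, where 13.9% and 11.1% of all genes did, and none fell. With the block 4 rose and 1 fell in p300kd cells (22.9% and 22.8% of all genes), and 3 rose in NS cells (21.6% of all genes). Uchl5, which trims chains on the proteasome and also sits in the INO80 remodelling complex, read 9.83, 10.01 and 9.98 at 8 h, against 9.42, 9.38 and 9.31 at 0 h, in p300kd cells. In NS cells it read 9.69, 9.99 and 9.64 at 8 h, against 9.25, 9.38 and 9.33 at 0 h. All 8 h arrays lay above all 0 h arrays, with changes of 0.57 in p300kd cells (SE 0.0985, adjusted p = 8.17e-04) and 0.45 in NS cells (SE 0.0985, adjusted p = 0.00439). The NS call was lost without experiment 2 (0.38, adjusted p = 0.0640).

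Uchl1, an abundant neuronal hydrolase that holds ubiquitin monomers, read 12.37, 12.29 and 12.05 at 8 h, against 12.03, 11.86 and 11.62 at 0 h, in p300kd cells. In NS cells the values were 12.39, 12.49 and 12.11 at 8 h, against 12.07, 12.24 and 11.77 at 0 h. The p300kd groups did not overlap, the NS groups did, and experiment 3 was lowest in each group. The change was 0.40 in p300kd cells (SE 0.140, adjusted p = 0.0445) and 0.30 in NS cells (SE 0.140, adjusted p = 0.130, and 6.29e-04 with the experiment as a block). The p300kd call was lost under 9 of 24 alternatives, with adjusted p up to 0.202 without experiment 2, and leaving out NS replicate 1 at 0 h or at 8 h was among them.

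Neuronal markers were set beside Uchl1. In each drug comparison 2 of 11 passed as higher and 1 as lower. Of all genes 13.9% rose and 17.5% fell in p300kd cells, and 11.1% rose and 16.4% fell in NS cells. With the block 4 passed as higher in p300kd cells (22.9% of all genes) and 2 in NS cells (21.6%), and 1 as lower in each. Among those higher in both was Tubb3, at 0.47 in p300kd cells (limma adjusted p = 0.00267) and 0.36 in NS cells (adjusted p = 0.0141). Tubb3 had the brightest probe set of the 11 and so weighs most in their summed intensity. Over the 11 the changes ran from -0.35 to 0.47 in p300kd cells, with a median of 0.10 (0.04 over all genes). In NS cells they ran from -0.33 to 0.36, with a median of 0.10 (0.04 over all genes). Their summed intensity was 1982 to 2213 at 8 h, against 1806 to 1945 at 0 h, in p300kd cells, and 2082 to 2214 at 8 h, against 1907 to 1996 at 0 h, in NS cells. Their part in the Uchl1 values was not tested.

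Uchl3, which cuts ubiquitin and NEDD8 from small adducts, was at 0.46 in p300kd cells (SE 0.174, adjusted p = 0.0595, and 4.64e-05 with the block) and 0.31 in NS cells (SE 0.174, adjusted p = 0.207, and 0.00149 with the block). Its second probe set was at 0.45 in p300kd and 0.30 in NS cells. RefSeq lists 2 further rat copies of Uchl3 and 2 pseudogenes of Usp15, so signal of these genes may be shared with near-identical sequence. Usp14, a proteasome-bound protease, was at 0.26 in p300kd cells (adjusted p = 0.0823, and 0.00124 with the block) and 0.10 in NS cells. Usp5, which takes apart unanchored chains, was at -0.19 in p300kd cells (adjusted p = 0.0961, and 0.0201 with the block) and -0.10 in NS cells, and its relative Usp13 at 0.14 in p300kd and -0.05 in NS cells. A second Usp13 probe set was at 0.17 in p300kd and 0.04 in NS cells.

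Usp15, which acts on the TGF-beta receptor and on SMADs, read 10.63, 10.58 and 10.74 at 8 h, against 10.32, 10.42 and 10.28 at 0 h, in p300kd cells. In NS cells it read 10.70, 10.86 and 10.60 at 8 h, against 10.39, 10.40 and 10.39 at 0 h. The 8 h arrays were higher in each experiment, by 0.31 in p300kd cells (SE 0.0831, adjusted p = 0.0120) and 0.32 in NS cells (SE 0.0831, adjusted p = 0.0116). The p300kd call was lost without experiment 1 (adjusted p = 0.0544), experiment 3 (0.24, adjusted p = 0.165) or p300kd replicate 3 at 8 h (adjusted p = 0.0559), and the NS call without experiment 2 (0.26, adjusted p = 0.142) or experiment 1 (0.33, adjusted p = 0.05 after rounding, just over the threshold). The other members of that pathway were not called: Usp4 was at 0.03 in p300kd and 0.00 in NS cells, and Usp9x, which acts on SMAD4 and MCL1, at -0.35 in p300kd cells (adjusted p = 0.107, and 0.00453 with the block) and -0.19 in NS cells.

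Otud6b, an OTU protease, read 9.68, 9.82 and 9.84 at 8 h, against 9.40, 9.57 and 9.31 at 0 h, in p300kd cells. NS cells gave 9.47, 9.90 and 9.51 at 8 h, against 9.33, 9.43 and 9.50 at 0 h. Only the p300kd groups were apart, with a change of 0.36 (SE 0.117, adjusted p = 0.0340), against 0.21 in NS cells, which did not pass. The p300kd call was lost under 7 of 24 alternatives, including without any 1 experiment, with adjusted p up to 0.279 without experiment 3.

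Of the 6 members of innate immune signalling, only Otud4, which stabilises the adaptor MAVS, was called, in NS cells only. Of all genes 11.1% rose and 16.4% fell in NS cells, and 13.9% rose and 17.5% fell in p300kd cells. It fell by 0.28 in NS cells (SE 0.0911, adjusted p = 0.0366) and was at -0.18 in p300kd cells (adjusted p = 0.153, and 0.0456 with the block). The NS call was lost under 11 of 24 alternatives, including without any 1 experiment (adjusted p from 0.0502 to 0.252). Otud7b (-0.25 in p300kd and -0.26 in NS cells) and Usp31 (0.23 in p300kd and 0.21 in NS cells), both inhibitors of NF-kB signalling, did not pass, and both passed in both kinds of cell with the block (adjusted p from 0.0105 to 0.0259). Otud5, which acts on TRAF3, was at 0.16 in p300kd cells (adjusted p = 0.103, and 0.0288 with the block) and 0.14 in NS cells, and Usp25 was at 0.09 in p300kd and 0.10 in NS cells. The remaining members, Usp24, Usp26, Usp29, Usp40 and Usp43, had changes from -0.12 to 0.13 in p300kd cells and from -0.18 to 0.17 in NS cells and were not called.

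The drug change differed between relatives in several pairs. In 6 of 9 pairs of paralogs, the first gene's drug change minus the second's had 1 sign in 6 of 6 differences taken within an experiment. The difference was widest for Usp53 minus Usp54, at -1.04 in p300kd cells (-1.15 to -0.92) and -0.95 in NS cells (-1.08 to -0.75). Usp20 minus Usp33 was -0.71 in p300kd cells (-1.10 to -0.46) and -0.70 in NS cells (-0.94 to -0.49). Smaller differences of 1 sign were found for Usp43 minus Usp31 (-0.35 in p300kd and -0.40 in NS cells), Usp45 minus Usp16 (-0.31 in p300kd and -0.39 in NS cells), Usp47 minus Usp7 (-0.29 in each) and Usp15 minus Usp4 (0.28 in p300kd and 0.33 in NS cells). The pairs were chosen after the changes were seen, so these values are a description without a test. The pairs Usp13 with Usp5, Usp28 with Usp25 and Usp44 with Usp49 had differences of both signs.

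**Figure D3:**
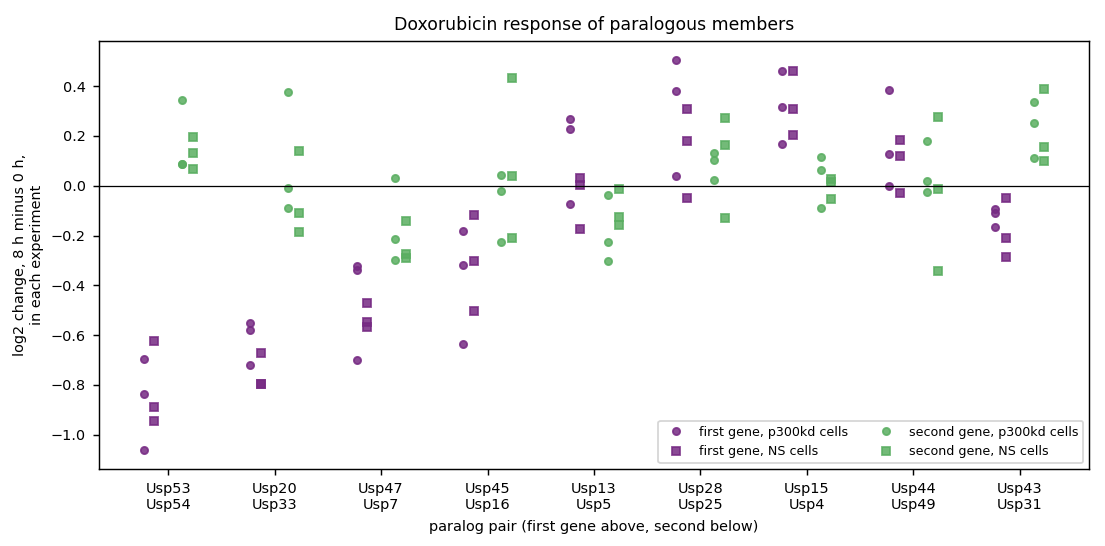
Drug change on the log2 scale (8 h minus 0 h, vertical axis) in each experiment for 9 pairs of paralogs, with the first gene of a pair in purple, the second in green, p300kd cells as circles and NS cells as squares. The values of Usp53 and Usp54, of Usp20 and Usp33 and of Usp43 and Usp31 do not overlap. Those of Usp47 and Usp7 and of Usp15 and Usp4 are also apart, by a narrow gap.

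With the p300 siRNA no member was called. By limma 0 of 47 were called at 8 h, at 0 h or averaged over both times, where 0.0483% of all genes were at 8 h, 0.0207% at 0 h and 1.25% averaged. At an unadjusted p under 0.05 the counts were 0 at 8 h (7.96% of all genes), 1 at 0 h (6.95%) and 3 averaged (12.7%). With the experiment as a block they were 6 at 8 h (17.3%), 5 at 0 h (15.3%) and 10 averaged (23.2%), and without NS replicate 2 at 8 h the count at 8 h was 6 (8.1%). The averaged changes ran from -0.18 to 0.20, with a median of 0.03, against 0.01 over all genes, and their 95% intervals lay between -0.46 and 0.58. The 8 h groups did not overlap for Usp20 and Usp48, which were higher in p300kd cells (4.76% of all genes were), and for Usp53, which was lower (6.29% of all genes were). At 0 h they did not overlap for Usp26, Usp30, Usp42, Usp45 and Usp6nl, all higher in p300kd cells (6.18% of all genes were), and for 0 members that were lower (6.82% of all genes).

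The 5 members with the smallest averaged p were Usp30, Usp53, Usp45, Usp6nl and Usp11. Usp30 stood at 9.50, 9.57 and 9.69 in p300kd cells at 0 h, against 9.35, 9.28 and 9.35 in NS cells at 0 h, and at 8.87, 8.92 and 8.99 in p300kd cells at 8 h, against 8.91, 8.77 and 8.89 in NS cells at 8 h. The siRNA groups were apart at 0 h and overlapped at 8 h. Its averaged change was 0.17 (SE 0.0562, adjusted p = 0.199), its change at 0 h was 0.26 (SE 0.0794, adjusted p = 0.376), and with the experiment as a block the averaged change passed (adjusted p = 0.0432).

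Usp53 was at -0.18 averaged (SE 0.0692, adjusted p = 0.288), from -0.19 to -0.16 over the experiments once both times were averaged. The single times varied more. Its groups were apart at 8 h, as given above, and overlapped at 0 h. There experiment 2 read 9.07 in p300kd and 9.02 in NS cells, against 9.06 and 9.27 in experiment 1 and 9.02 and 9.32 in experiment 3. Usp45 read 8.09, 7.66 and 8.04 in p300kd cells at 8 h, against 7.82, 7.87 and 7.60 in NS cells at 8 h, and 8.41, 8.29 and 8.22 in p300kd cells at 0 h, against 8.13, 7.99 and 8.11 in NS cells at 0 h. Its groups were apart at 0 h only, and the averaged change was 0.20 (SE 0.0808, adjusted p = 0.321). Usp6nl was at 0.15 (SE 0.0749, adjusted p = 0.427) and Usp11 at 0.13 (SE 0.0644, adjusted p = 0.456), each above 0 in all 3 experiments. Uchl1 was at -0.14 averaged and passed with the block (adjusted p = 0.0460), where 3.23% of all genes passed as higher and 6.29% as lower; Usp30 and Uchl1 were the 2 members called there.

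**Figure D4:**
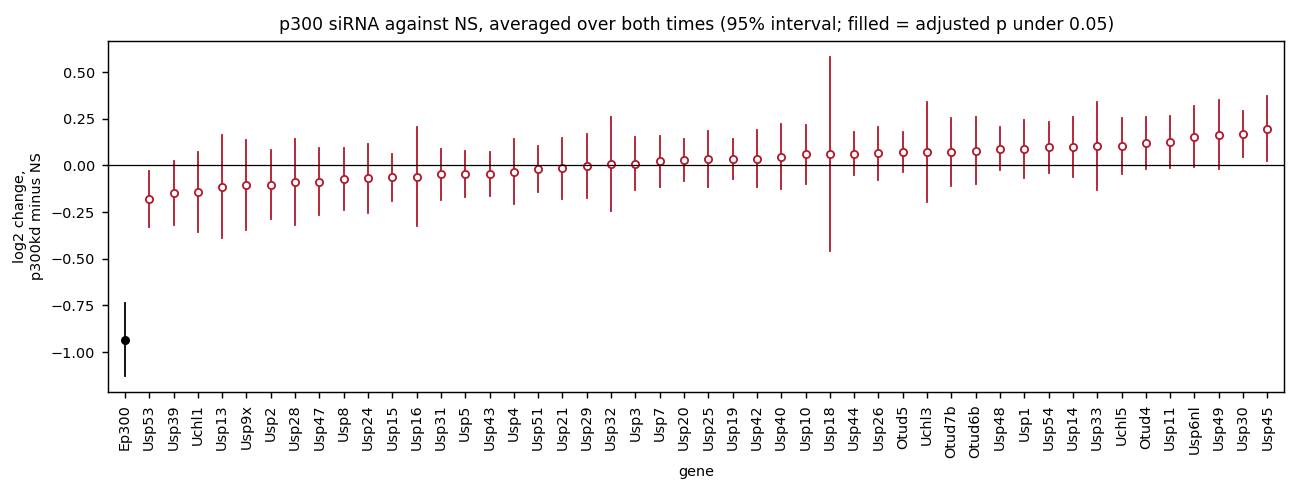
Averaged log2 change with the p300 siRNA (p300kd minus NS, vertical axis) of Ep300 (black) and of the 47 members (red), with 95% intervals from limma and filled points at adjusted p under 0.05. Ep300 lies at -0.93, while the members lie between -0.18 and 0.20 and none is filled.

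The difference between the drug responses of p300kd and NS cells was called for no member: by limma 0 of 47 passed, where 0% of all genes passed, and 0 members had an unadjusted p under 0.05, where 1.57% of all genes did, a share under 1 member in 47. Usp30 had the smallest p (difference -0.19, SE 0.112, 95% interval -0.43 to 0.06), followed by Usp19 (-0.15, SE 0.100), Usp20 (0.14, SE 0.102), Usp21 (-0.18, SE 0.151) and Usp1 (0.17, SE 0.144). The differences ran from -0.23 to 0.19 over the members.

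The members also differed in how far the 3 experiments moved them. The sum of squares over the 12 arrays was divided between drug, siRNA, the difference between responses, experiment and residual. Drug held a median of 48.7% over the members (34.0% over all genes), experiment 12.9% (16.3%) and siRNA 3.99% (3.83%). Drug was the largest part for 27 members, experiment for 13 and the residual for 7. The parts have unequal degrees of freedom, more for experiment than for drug or siRNA and most for the residual. The shares therefore do not rank the sizes of the effects. For Usp2, Usp10 and Usp42 drug held 94.2%, 95.5% and 95.9%.

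At the other end stood Usp18, which removes the ubiquitin-like protein ISG15 and dampens the type I interferon receptor. It read 11.25, 12.35 and 12.06 in p300kd cells at 8 h, 11.45, 12.35 and 12.23 in p300kd cells at 0 h, 11.58, 12.31 and 11.93 in NS cells at 8 h and 11.13, 12.24 and 12.12 in NS cells at 0 h. Experiment 1 was lowest in 4 of 4 groups, and experiment held 92.0% of the sum of squares. Neither drug change was called (-0.12 in p300kd and 0.11 in NS cells). Usp4 (89.7%) and Usp13 (77.0%) had the next largest parts held by experiment.

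Genes of the ISG15 system and the interferon response were lowest in experiment 1 in 4 of 4 groups for 11 of 15, where 15.2% of all genes and 7 of the 47 members were. Isg15, the modifier that Usp18 removes, averaged 9.85, 10.86 and 10.54 in experiments 1, 2 and 3, and Irf7, an interferon regulatory factor, 11.34, 12.15 and 12.17. This pattern was noticed in the data and is given as a description. With the experiment as a block, fixed or random, the Usp18 drug changes were also not called. By the drug, 1 of the 15 rose (Herc6, 0.78, limma adjusted p = 0.0352) and 1 fell (Irf9, -0.93, adjusted p = 8.46e-04) in NS cells. In p300kd cells 0 rose and 1 fell (Irf9, -1.07, adjusted p = 2.63e-04). Of all genes 11.1% rose and 16.4% fell in NS cells, and 13.9% rose and 17.5% fell in p300kd cells. With the block 2 rose and 5 fell in p300kd cells (22.9% and 22.8% of all genes), and 8 rose and 3 fell in NS cells (21.6% and 21.9%). With the p300 siRNA at 0 h the 15 changes ran from 0.04 to 0.81 (median 0.27), and at 8 h the median was 0.01. The difference between the drug responses ran from -0.54 to -0.03 over the 15 (median -0.33). None was called in these 3 comparisons without the block. With the block 4 of the 15 passed as higher with the p300 siRNA at 0 h, where 101 of 14506 genes did. At 8 h 0 of the 15 passed with the block (111 of 14506 genes higher and 344 lower), and 0 passed for the difference. Averaged over both times, 3 of the 15 passed as higher with the block (3.23% of all genes). Usp18 had the lowest such difference of the members, at -0.23. The cause of these differences was not tested.

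**Figure D5:**
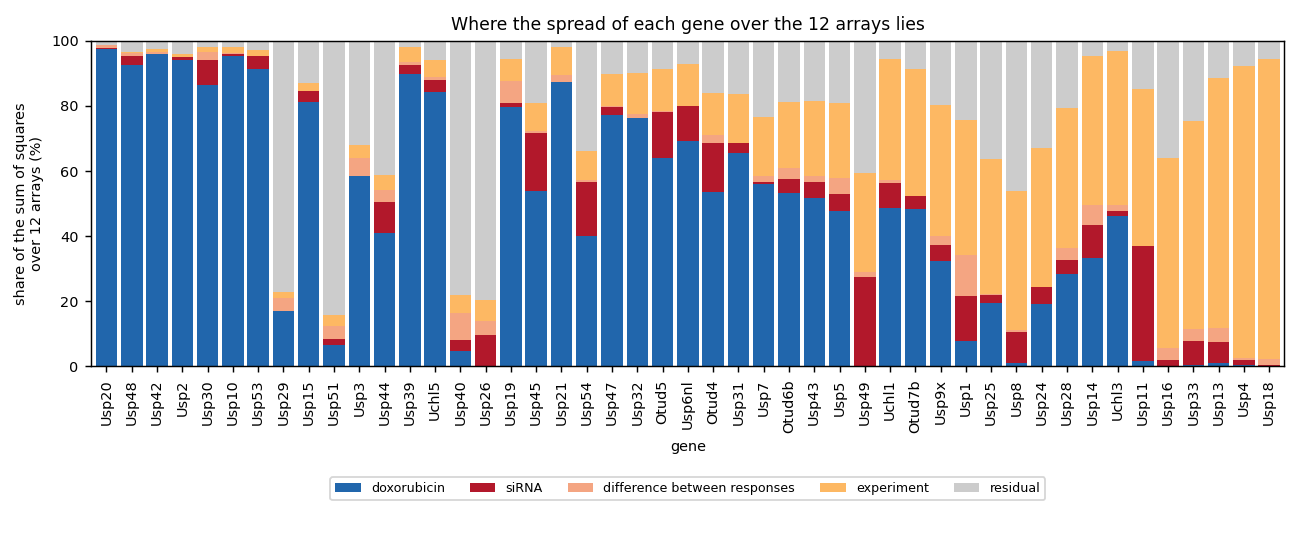
Share of each member's sum of squares over the 12 arrays (percent, vertical axis) that lies between drug times (blue), siRNAs (red), in the difference between responses (pink), between experiments (orange) and in the residual (grey), ordered by the share of experiment. Usp20 is at the left with 97.5% for drug, and Usp18 at the right with 92.0% for experiment.

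Other parts of the ubiquitin system gave the following counts. Of 18 genes listed as deubiquitinases of other families, a list that also holds the SUMO protease Uspl1, 2 rose and 5 fell in p300kd cells. Of all genes 13.9% rose and 17.5% fell there. In NS cells 2 rose and 6 fell (11.1% and 16.4% of all genes). With the block 4 rose and 6 fell in p300kd cells (22.9% and 22.8% of all genes). In NS cells 2 rose and 6 fell with the block (21.6% and 21.9% of all genes). Uspl1, related to the Usp family in sequence, was at -0.85 in p300kd cells and -0.81 in NS cells, and Otub2, an OTU protease, at -0.83 in p300kd and -0.69 in NS cells. Stambp, which acts at endosomes, was at -0.62 in p300kd and -0.53 in NS cells, and Mindy1 at -0.37 in each, all of them called. Josd2 (0.31 in p300kd and 0.33 in NS cells) and Mindy3 (0.39 in p300kd and 0.28 in NS cells) rose in both.

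Of 17 partner subunits and cofactors, 1 rose and 5 fell in p300kd cells (13.9% and 17.5% of all genes). In NS cells 1 rose and 8 fell (11.1% and 16.4% of all genes). With the block 2 rose and 7 fell in p300kd cells (22.9% and 22.8% of all genes). In NS cells 2 rose and 10 fell with the block (21.6% and 21.9% of all genes). Atxn7l2, related to a subunit of the SAGA deubiquitinase module, fell by 0.83 in p300kd and by 0.69 in NS cells. Wdr48, which activates Usp1 and its relatives, fell by 0.73 in p300kd cells (adjusted p = 6.33e-05) and by 0.65 in NS cells (adjusted p = 1.73e-04). Nfrkb and Adrm1, which hold Uchl5 in INO80 and on the proteasome, fell by 0.57 and 0.50 in p300kd cells and by 0.60 and 0.37 in NS cells. Eny2, a subunit of the SAGA module, rose by 0.41 in p300kd cells and by 0.33 in NS cells.

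Of 25 known substrates, 3 rose and 8 fell in p300kd cells (13.9% and 17.5% of all genes). In NS cells 2 rose and 8 fell (11.1% and 16.4% of all genes). With the block 4 rose and 10 fell in p300kd cells (22.9% and 22.8% of all genes). In NS cells 3 rose and 8 fell with the block (21.6% and 21.9% of all genes). Mdm2, the p53 ligase, rose by 0.74 in p300kd cells (SE 0.167, adjusted p = 0.00448) and by 0.72 in NS cells (SE 0.167, adjusted p = 0.00641), and Foxo4 by 0.55 in p300kd and 0.49 in NS cells. Traf6 (-0.88 in NS cells, and also called in p300kd cells), Traf2 (-0.83 in p300kd and -0.79 in NS cells), Mcl1 (-0.79 in p300kd and -0.76 in NS cells) and Ccna2 (-1.02 in p300kd and -0.76 in NS cells) had the largest falls.

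Of 31 E1 and E2 enzymes, 4 rose and 10 fell in p300kd cells (13.9% and 17.5% of all genes). In NS cells 1 rose and 11 fell (11.1% and 16.4% of all genes). The largest fall was in Ube2g2, an E2 of the endoplasmic reticulum (-0.85 in p300kd and -0.80 in NS cells). With the block the E1 and E2 counts were 4 up and 11 down in p300kd cells (22.9% and 22.8% of all genes). In NS cells they were 7 up and 12 down (21.6% and 21.9% of all genes). Of 7 SUMO and NEDD8 proteases, 0 rose and 2 fell in p300kd cells (13.9% and 17.5% of all genes). In NS cells 0 rose and 4 fell (11.1% and 16.4% of all genes). Senp8 fell by 0.71 in p300kd and by 0.63 in NS cells. With the block 5 fell in p300kd cells and 6 in NS cells (22.8% and 21.9% of all genes). The median change of a list ran from -0.29 (SUMO and NEDD8 proteases, both kinds of cell) to 0.27 (interferon genes in NS cells), against 0.04 over all genes.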

How the data were processed

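Total RNA of 12 myocyte cultures was hybridised to Affymetrix whole-transcript arrays. Each deposited column holds intensity on a linear scale (8.05 to 25315) for every probe set. The submitters' processing notes name Affymetrix Expression Console 1.1 and RMA, which corrects background, normalises and summarises probes. How RMA output became linear is not given in the sources used here; the scale was inferred from the range, and log2 was computed. Array medians were 7.73 to 7.80 on that scale. Differences between 2 arrays of one group had an SD of 0.154 to 0.265.

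Of 29214 probe sets, 15310 carried 1 gene symbol, 323 several and 13581 none in the platform annotation; those without exactly 1 were left out, among them 1 that names Usp36 beside another gene. The brightest probe set stood for a gene, without a filter on level. Group means of the 4 groups were estimated by lmFit and moderated by eBayes with trended variance (limma 3.58.1, R 4.3.3; two-sided, 8 residual df), and p was adjusted within each of 6 comparisons over 14506 genes. The fit was also run on simulated data with noise drawn independently for each gene and array. Such data hold no shared experiment effect, so they do not test the fit under the pairing described next.

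The replicate numbers in the labels were checked as pairs. The 18 same-number pairs of arrays from different groups had a median correlation of deviations from the group mean of 0.504 (0.172 to 0.689). Other pairs from different groups had -0.271. Deviations sum to 0 within a group, so this negative value follows from the positive one and is no separate support. The closest array carried the same number for 12 of 12, and the number is called the experiment. Replicates came from separate experiments by the design text.

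The members, gene lists, roles, paralog pairs and motifs were chosen with earlier results of these data known. The genes given with array values were, per comparison, up to 8 rises and 8 falls that passed without overlap, the 3 brightest and 3 dimmest members, and, with none called for the siRNA or the difference, the 5 with the smallest p; some members beyond these are given with changes only. For lists, genes that passed were taken by size of change. Ubiquitin precursor genes were listed, and 0 had a probe set with 1 symbol. Alternatives were the experiment as a fixed or random block, only the groups compared, dim genes left out, 2 other normalisations, log2 of the intensity plus 50, the mean of a gene's probe sets, a robust variance, and leaving out arrays or experiments. Promoters came from a RefSeq table on GRCr8. Figures were drawn with matplotlib 3.10.9.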

Additional observations from a re-analysis of the deposited data

Results flagged for a closer look

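The p300 siRNA difference of Usp21, a histone H2A deubiquitinase, lay on opposite sides of 0 at the 2 times in every experiment. It was -0.106 at 8 h and 0.0774 at 0 h (p300kd minus NS, log2 scale, n = 3 arrays per group), and neither was called by limma (adjusted p = 0.874 at 8 h and 0.995 at 0 h). The test of the difference between the 2 times is that between the drug responses, which was -0.18 (SE 0.151) and was not called by limma (adjusted p = 1.00).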

How the results depend on the processing

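Of the calls after doxorubicin, 10 of 18 in p300kd cells and 8 of 16 in NS cells held under all alternatives run for them, and no called member changed direction. The p300kd calls that held were those of Uchl5, Usp10, Usp2, Usp20, Usp21, Usp30, Usp39, Usp42, Usp48 and Usp53, and the NS calls those of Usp10, Usp2, Usp20, Usp30, Usp39, Usp42, Usp48 and Usp53. The count of rises in p300kd cells was 9 with the replicate block, fixed or random, 11 with arrays centred on their medians and 7 with quantile normalization repeated. In NS cells it was 5 with the replicate block, fixed or random, 6 with arrays centred on their medians and 4 with quantile normalization repeated. Leaving out 1 array or 1 experiment gave 2 to 6 rises and 10 to 16 falls in p300kd cells and 0 to 2 rises and 9 to 15 falls in NS cells. Without p300kd replicate 3 at 0 h, or replicate 2 or 3 at 8 h, 2 members rose in p300kd cells. With the replicate block 1 member rose and 1 fell with the p300 siRNA averaged over both times. Other counts over the 47 members at the adjusted threshold kept within 1.5 times of their value. Counts within roles and lists, and counts at an unadjusted p, also moved with the block, by over 1.5 times for several, and stand beside those results. Why counts moved with the scaling or the block was not tested; fits without an experiment rest on fewer arrays. Dim signal limits Usp26, Usp29 and Usp44.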
